A study of Mus musculus with 18 samples.

Results

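The visual cycle is the set of reactions that return the light-bleached chromophore of the visual pigments to its light-sensitive form. Of the 10 mouse genes followed here for it, Rpe65, Rgr, Lrat, Rdh5, Rdh8, Rdh11, Rdh12, Rlbp1, Rbp3 and Abca4, 9 were measured by a probe set that the array platform annotates to that gene alone. They were represented by 11 such probe sets among the 22626 probe sets and 12393 named genes tested. Rdh11 and Rdh12 had 2 probe sets each, and the brighter over all arrays represents the gene. Rdh8 is not analysed here. A further probe set is shared by Rdh5 and Bloc1s1 and was not used for either gene.

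Retinas of Balb/cJ mice, an albino strain, were detached by injecting 1 uL of fluid beneath them. The fluid was saline with 10 uM INS37217 or saline alone. INS37217 (denufosol) activates the nucleotide receptor P2Y2. Tissue was collected at 2 h, at 24 h, when the retinas lay flat again but were still folded, and at 7 d, when the folds were gone. Each of the 6 groups held 3 arrays, 18 in all, and each array held RNA of a pool of more than 5 retinas. All mice were injected, and uninjected retinas are not analysed here, which leaves comparisons among detached retinas. The deposited values are RMA levels on a log2 scale, a background-corrected, quantile-normalised summary of the probes of a set. Differences below are log2 differences of group means with n = 3 arrays per group, their standard error (SE) and a limma p adjusted over all 22626 probe sets, and "passed" means an adjusted p under 0.05.

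The retinoid passes through 3 kinds of cell. In photoreceptors, bleached opsin releases all-trans-retinal into the disc membrane, Abca4 moves its lipid adduct out of the disc, and the dehydrogenases Rdh8 and Rdh12 reduce it to retinol. Rbp3 (interphotoreceptor retinoid-binding protein), which photoreceptors secrete, fills the space between retina and pigment epithelium, the space that a detachment opens, and carries retinoids across it. In the pigment epithelium Lrat esterifies the retinol, Rpe65 isomerises the ester and Rdh5 oxidises the product to the cis aldehyde. Rlbp1 (cellular retinaldehyde-binding protein) holds cis retinoids in the pigment epithelium and in Mueller glia, the radial glia of the retina. Rgr, a light-absorbing opsin of both those cells, takes part in forming cis retinal.

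On the labelled retinas the photoreceptor genes were bright: Rbp3 lay at percentile 99.7 of all probe sets by its mean, Rdh12 at 98.3 and Abca4 at 98.2. The 15 rod markers measured averaged between 11.36 and 11.95 over the 6 groups, and the 17 Mueller glia markers between 9.41 and 10.07. The 16 pigment epithelium markers averaged between 7.13 and 7.97 over the groups. Rpe65 lay at percentile 77.2, Rgr at 81.5, Rdh5 at 68.5, Rlbp1 at 89.9 and Rdh11 at 70.9. Lrat lay at percentile 6.9, among the dimmest probe sets of the array. Levels of different probe sets depend on their probes and are not set against each other here. The 11 lens markers averaged between 11.23 and 12.17, with the lowest average at 2 h with saline.

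Replicate 1 stood apart from replicates 2 and 3 in every group. With the group means removed, arrays of the same number correlated at 0.426 to 0.921 over all probe sets, and replicate 1 correlated with replicates 2 and 3 at -0.847 to -0.501. The visual cycle genes took part unequally: relative to its group, replicate 1 was lower for Rgr in all 6 groups, by 0.51 on average, lower for Rlbp1 in all 6, by 0.37, and higher for Rbp3 in all 6, by 0.32. For Rdh12, Abca4, Rpe65 and Lrat the average was within 0.08. What the numbers stand for is not stated in the labels. For the visual cycle genes the value with the replicate number as a block is given where it changes a call, and for the lists the count with it where it moved by more than 1.5 times. The source names disagree with the titles for 8 of the 9 INS37217 arrays, where they speak of saline only, and for saline 7 d replicate 2, where they give 2 h; the titles were followed.

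Over time the 9 genes did not move as one, and the courses did not split by cell type throughout; classes were not tested against each other. For Rpe65, Rdh5 and Rgr both 7 d groups had higher means than all other groups. Lrat and Rlbp1 also had their highest group mean at 7 d with saline, but not so with INS37217. Rlbp1 was lower at 24 h than at either other time. Rdh12 and Abca4 were lower at 24 h and had means still below those of 2 h at 7 d. Lrat, Rbp3 and Rdh11 passed in no comparison without the block.

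**Figure D1:**
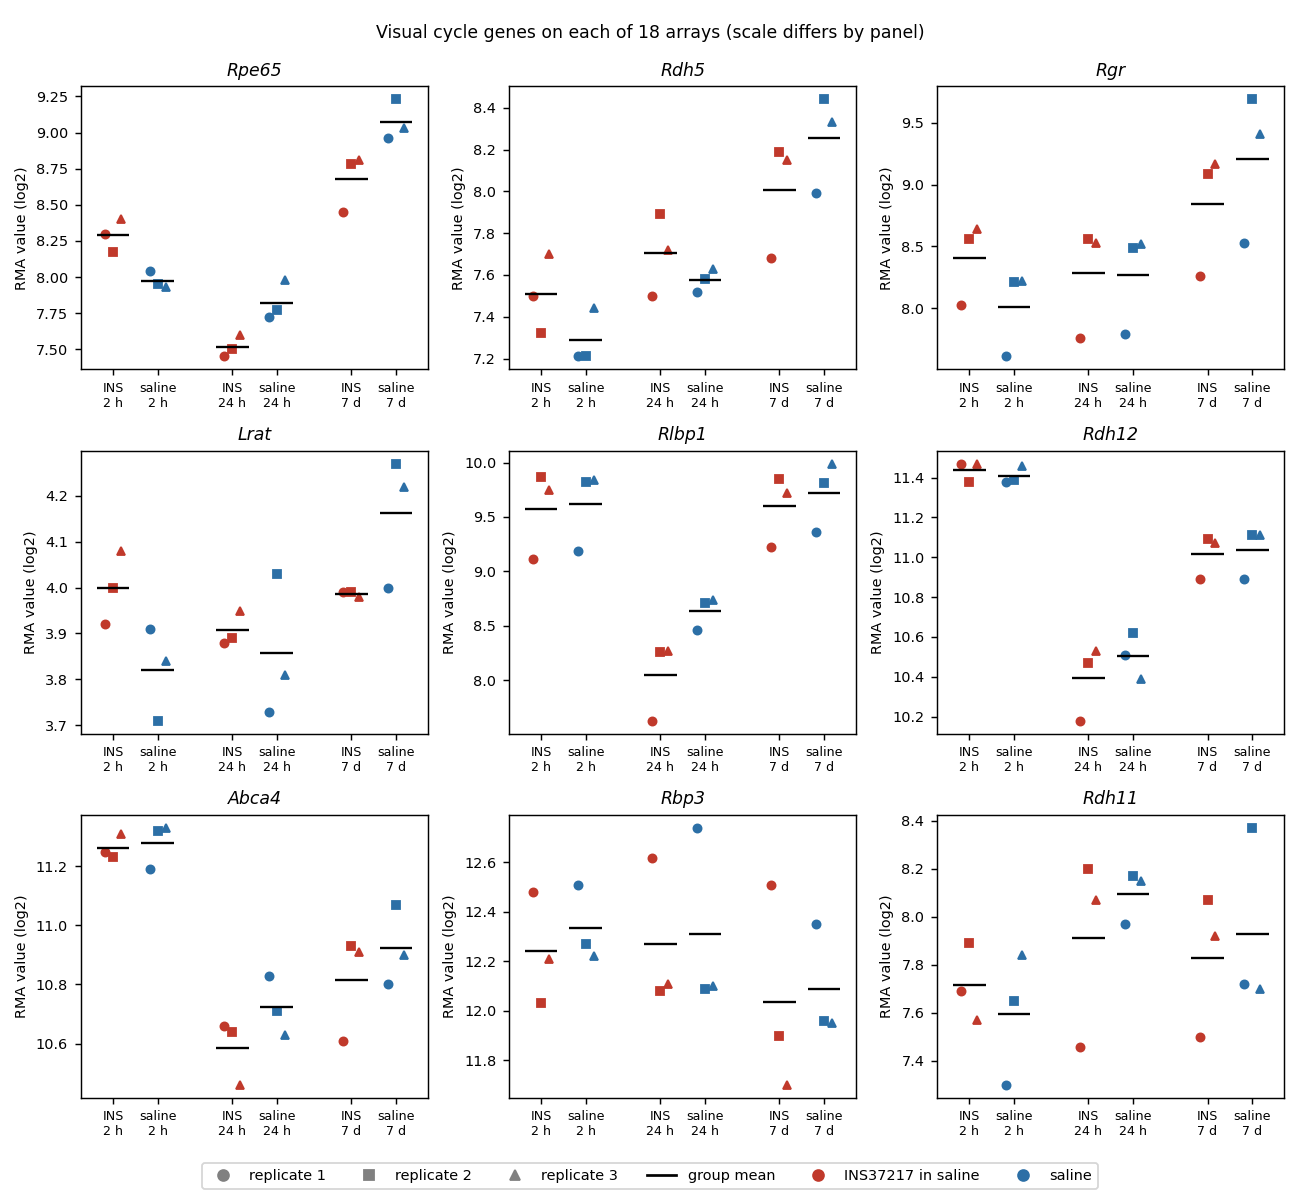
RMA value (log2) of 9 visual cycle genes on each of the 18 arrays, with a marker shape for each replicate and a black line at the group mean; the vertical scale differs by panel. Rpe65 is highest in the 7 d groups, Rlbp1 and Rdh12 are lowest in the 24 h groups, and replicate 1 lies lowest in every group for Rgr and Rlbp1 and highest for Rbp3.

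Rpe65, the isomerohydrolase that makes the cis retinoid, had RMA values of 8.30, 8.17 and 8.40 at 2 h with INS37217, and of 8.04, 7.95 and 7.93 at 2 h with saline. At 24 h it had 7.45, 7.50 and 7.60 with INS37217, and 7.72, 7.77 and 7.98 with saline. At 7 d it had 8.45, 8.78 and 8.81 with INS37217, and 8.96, 9.23 and 9.03 with saline. The saline arrays at 7 d lay above all other arrays, and the INS37217 arrays at 24 h lay below all others. In comparisons over time within a treatment, the arrays of the groups did not overlap for 10.7% to 24.6% of all probe sets. From the highest group mean to the lowest the order was saline 7 d, INS37217 7 d, INS37217 2 h, saline 2 h, saline 24 h and INS37217 24 h, over a range of 1.56 with a pooled SD of 0.13. Of neighbouring groups in that order, saline 2 h and saline 24 h overlapped.

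With INS37217, Rpe65 fell between 2 h and 24 h, with a difference of -0.77 (SE 0.12, adjusted p = 0.00055) and 3 of 3 replicate pairs lower. With saline the same difference was -0.15 (SE 0.12, 95% interval -0.40 to 0.10, adjusted p = 0.54). Between 24 h and 7 d Rpe65 rose in both treatments, by 1.16 with INS37217 (2.24-fold, adjusted p = 2.2e-05) and by 1.25 with saline (2.38-fold, adjusted p = 2.2e-05). It was higher at 7 d than at 2 h with saline, by 1.10 (2.14-fold, adjusted p = 2.8e-05). With INS37217 that difference was 0.39 (SE 0.12, 95% interval 0.14 to 0.64, adjusted p = 0.08), which passed with the replicate block (adjusted p = 0.012). The 3′ to 5′ signal ratio of beta-actin, a sign of RNA integrity, also moved between these times, with a log2 mean of 0.747, 0.623 and 0.603 at 2 h, 24 h and 7 d with INS37217, and of 1.04, 0.61 and 0.65 with saline. Its part in this and the other comparisons with 2 h was not tested.

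Rdh5, the dehydrogenase that acts after Rpe65, had values of 7.50, 7.32 and 7.70 at 2 h with INS37217, and of 7.21, 7.21 and 7.44 at 2 h with saline. At 24 h it had 7.50, 7.89 and 7.72 with INS37217, and 7.52, 7.58 and 7.63 with saline. By 7 d it had 7.68, 8.19 and 8.15 with INS37217, and 7.99, 8.44 and 8.33 with saline. With saline the arrays of the 3 times did not overlap, and with INS37217 they did. Over all probe sets with saline, the 24 h arrays lay wholly above those of 2 h for 12.9%. The saline 7 d arrays lay wholly above those of 24 h for 5.12% and above those of 2 h for 8.77%. In saline-injected retinas Rdh5 rose by 0.97 between 2 h and 7 d (SE 0.16, 1.95-fold, adjusted p = 0.0016). The saline step between 24 h and 7 d was 0.68 (SE 0.16, adjusted p = 0.0504) and did not pass without the replicate block but passed with it (adjusted p = 0.00073). The INS37217 difference between 7 d and 2 h was 0.50 (SE 0.16, adjusted p = 0.097, and 0.0046 with the block). Its 24 h minus 2 h difference did not pass and was 0.20 with INS37217 (95% interval -0.14 to 0.54) and 0.29 with saline (95% interval -0.05 to 0.63).

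Rgr, the light-absorbing opsin of pigment epithelium and Mueller glia, had values of 8.03, 8.56 and 8.64 at 2 h with INS37217, and of 7.61, 8.21 and 8.22 at 2 h with saline. At 24 h it had 7.76, 8.56 and 8.53 with INS37217, and 7.79, 8.49 and 8.52 with saline. The 7 d values were 8.26, 9.09 and 9.17 with INS37217, and 8.53, 9.69 and 9.41 with saline. Replicate 1 was the lowest array in all 6 groups, and each array at 7 d was above those of the same number at 2 h and 24 h. In saline-injected retinas Rgr rose by 1.20 between 2 h and 7 d (SE 0.34, 2.29-fold), with an adjusted p of 0.05 that lies just under the threshold before rounding. That call was lost in 14 of the 18 fits that leave out 1 array, with adjusted p between 0.011 and 0.23; it held without replicate 1 of any group but the 2 h ones. The same difference in the fit with the replicate block had an adjusted p of 3.5e-08. Its saline step between 24 h and 7 d, 0.94 (adjusted p = 0.32), its INS37217 step between 24 h and 7 d, 0.56 (adjusted p = 0.9), and its INS37217 difference between 7 d and 2 h, 0.43 (adjusted p = 0.68), passed with the block alone (adjusted p = 2.8e-06, 0.0011 and 0.0057).

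Lrat, the acyltransferase that makes the ester used by Rpe65, ranged from 3.71 to 4.27 over the 18 arrays and passed in no comparison without the block. Its largest difference over time was 0.34 for saline at 7 d against 2 h (SE 0.10, 95% interval 0.12 to 0.56, adjusted p = 0.071), which passed with the block (adjusted p = 0.015).

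The promoters of the 3 genes that were higher at 7 d are shown here so that their sequence can be set beside those of the photoreceptor genes below. Each is the RefSeq window of GRCm38.p6 from 250 bases before to 50 bases after a start position, 5′ to 3′ on the gene's strand. For Rgr, Rdh12 and Rbp3 that position is the 5′ end of the gene. For Rpe65, Rdh5, Rlbp1 and Abca4 it lies inside the gene, whose 5′ end is at 159599075, 128920037, 79392250 and 122043891. Capitals mark TAATCC on either strand (GGATTA when reversed), the core bound by the photoreceptor and pigment epithelium factors Crx and Otx2, and CANNTG, the E-box core bound by Mitf and many other factors. No match of one motif overlapped a match of the other. The Rpe65 window is chr3:159598931-159599230 on the plus strand, that of Rdh5 is chr10:128919248-128919547 on the minus strand, and that of Rgr is chr14:37048965-37049264 on the minus strand.
Rpe65: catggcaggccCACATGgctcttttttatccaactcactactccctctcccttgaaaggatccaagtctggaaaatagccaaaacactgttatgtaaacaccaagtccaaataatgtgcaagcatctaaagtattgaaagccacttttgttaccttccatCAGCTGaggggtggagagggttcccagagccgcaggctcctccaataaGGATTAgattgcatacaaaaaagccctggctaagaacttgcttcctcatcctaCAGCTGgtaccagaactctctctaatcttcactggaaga
Rdh5: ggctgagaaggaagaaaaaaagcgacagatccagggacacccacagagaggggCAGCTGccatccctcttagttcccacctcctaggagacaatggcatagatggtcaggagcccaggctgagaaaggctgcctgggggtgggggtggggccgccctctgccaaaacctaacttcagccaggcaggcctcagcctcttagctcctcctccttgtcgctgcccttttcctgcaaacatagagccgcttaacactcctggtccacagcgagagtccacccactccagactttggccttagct
Rgr: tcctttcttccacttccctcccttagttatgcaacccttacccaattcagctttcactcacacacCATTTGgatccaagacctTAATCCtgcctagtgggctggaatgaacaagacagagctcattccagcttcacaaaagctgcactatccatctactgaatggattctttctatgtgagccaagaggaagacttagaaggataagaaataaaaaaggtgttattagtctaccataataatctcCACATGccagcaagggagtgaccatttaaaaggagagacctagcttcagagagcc
The Rpe65 window held 1 TAATCC, reversed and 42 bases before its start position, and 3 CANNTG. That TAATCC lies inside the gene. The Rgr window held 1 TAATCC, forward and 167 bases upstream, and 2 CANNTG, and the Rdh5 window held 1 CANNTG and no TAATCC. A match is a description of the letters, not a shown binding site.

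Rlbp1 had the widest range of group means of the 9 genes, 1.67. It had values of 9.11, 9.87 and 9.75 at 2 h with INS37217, and of 9.19, 9.82 and 9.84 at 2 h with saline. At 24 h it had 7.63, 8.26 and 8.27 with INS37217, and 8.46, 8.71 and 8.74 with saline. At 7 d the values were 9.22, 9.85 and 9.72 with INS37217, and 9.36, 9.81 and 9.99 with saline. All 6 arrays at 24 h lay below all 12 arrays at the other times, and the 2 h and 7 d arrays overlapped. Over all probe sets, the 24 h arrays lay wholly below those of 2 h for 11.4% with INS37217 and 11.7% with saline. The 7 d arrays lay wholly above those of 24 h for 5.39% with INS37217 and 5.12% with saline.

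Rlbp1 fell between 2 h and 24 h by 1.52 on the log2 scale with INS37217 (SE 0.25, 0.348 of the 2 h level, adjusted p = 0.0012) and by 0.98 with saline (SE 0.25, 0.507 of the 2 h level, adjusted p = 0.027). It rose between 24 h and 7 d by 1.54 with INS37217 (SE 0.25, 2.91-fold, adjusted p = 0.0022) and by 1.08 with saline (SE 0.25, 2.12-fold, adjusted p = 0.0495). Against 2 h, the 7 d means differed by 0.02 with INS37217 (95% interval -0.52 to 0.56) and by 0.10 with saline (95% interval -0.44 to 0.64). Both saline calls were fragile without the block. The saline fall was lost without any 1 of saline 2 h replicate 2 or 3 or of the 3 saline 24 h arrays (adjusted p up to 0.11), and the saline rise was lost in 13 of 18 single omissions, holding only without replicate 1 of a group other than saline 24 h (adjusted p up to 0.23). With the block the saline fall had an adjusted p of 2.3e-07 and the saline rise one of 2.1e-07.

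The Rlbp1 window, shown for the gene with the widest range, is chr7:79386978-79387277 on the minus strand, with capitals as above. Its start position lies inside the gene, whose 5′ end is at 79392250.
Rlbp1: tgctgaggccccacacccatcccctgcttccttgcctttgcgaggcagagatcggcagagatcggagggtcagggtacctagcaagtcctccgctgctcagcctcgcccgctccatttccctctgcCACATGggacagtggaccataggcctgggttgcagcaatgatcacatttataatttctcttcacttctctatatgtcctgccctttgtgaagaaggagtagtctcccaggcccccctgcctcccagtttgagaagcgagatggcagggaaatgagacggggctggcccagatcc
It held 1 CANNTG and no TAATCC.

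Among the photoreceptor genes, Rdh12, the retinal reductase of the inner segment, had values of 11.47, 11.38 and 11.47 at 2 h with INS37217, and of 11.38, 11.39 and 11.46 at 2 h with saline. At 24 h it had 10.18, 10.47 and 10.53 with INS37217, and 10.51, 10.62 and 10.39 with saline. Its 7 d values were 10.89, 11.09 and 11.07 with INS37217, and 10.89, 11.11 and 11.11 with saline. The 3 times did not overlap in either treatment, with 7 d between 24 h and 2 h. With INS37217 and saline, 11.4% and 11.7% of all probe sets had their 24 h arrays wholly below those of 2 h. The 7 d arrays lay wholly above those of 24 h for 5.39% and 5.12%, and wholly below those of 2 h for 8.86% and 8.68%.

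Rdh12 fell between 2 h and 24 h by 1.05 with INS37217 (SE 0.11, 0.484 of the 2 h level, adjusted p = 1.4e-05) and by 0.90 with saline (SE 0.11, 0.535 of the 2 h level, adjusted p = 8.3e-05). It rose between 24 h and 7 d by 0.62 with INS37217 (SE 0.11, 1.54-fold, adjusted p = 0.0045) and by 0.53 with saline (SE 0.11, 1.44-fold, adjusted p = 0.024). It was still below its 2 h level at 7 d, by a difference of -0.42 with INS37217 (SE 0.11, adjusted p = 0.037) and of -0.37 with saline (SE 0.11, adjusted p = 0.066, and 0.0084 with the block). Its saline rise was lost without saline 24 h replicate 1 or 3 or saline 7 d replicate 2 or 3 (adjusted p up to 0.14). The INS37217 difference at 7 d was lost without any 1 of the 6 arrays compared or of saline 2 h replicates 2 and 3 (adjusted p up to 0.12). The other Rdh12 probe set had differences of the same sign in the steps between 2 h and 24 h, -0.86 with INS37217 (adjusted p = 0.0041) and -0.45 with saline (adjusted p = 0.13, and 0.0024 with the block). It had 0.60 and 0.55 in the steps between 24 h and 7 d with INS37217 and saline (adjusted p = 0.091 and 0.18, and 0.00046 and 0.0016 with the block). Over the whole interval to 7 d it disagreed with the first for saline, with a difference of 0.10 (95% interval -0.26 to 0.46), and with INS37217 its difference was -0.26 (95% interval -0.62 to 0.10, adjusted p = 0.57), so the level of Rdh12 below 2 h at 7 d passed on 1 of its 2 probe sets.

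Abca4, the transporter that clears retinal from the outer segment discs, had values of 11.25, 11.23 and 11.31 at 2 h with INS37217, and of 11.19, 11.32 and 11.33 at 2 h with saline. At 24 h it had 10.66, 10.64 and 10.46 with INS37217, and 10.83, 10.71 and 10.63 with saline. By 7 d it had 10.61, 10.93 and 10.91 with INS37217, and 10.80, 11.07 and 10.90 with saline. All 2 h arrays lay above all later ones, and the 24 h and 7 d arrays overlapped. With INS37217 and saline, the 24 h arrays lay wholly below those of 2 h for 11.4% and 11.7% of all probe sets. The 7 d arrays did so for 8.86% and 8.68%. Abca4 fell between 2 h and 24 h by 0.68 with INS37217 (SE 0.11, 0.626 of the 2 h level, adjusted p = 0.00099) and by 0.56 with saline (SE 0.11, 0.68 of the 2 h level, adjusted p = 0.0049). The step between 24 h and 7 d was 0.23 with INS37217 (95% interval -0.01 to 0.47) and 0.20 with saline (95% interval -0.04 to 0.44), and it passed in neither. Its difference at 7 d against 2 h was -0.45 with INS37217 (SE 0.11, adjusted p = 0.027) and -0.36 with saline (SE 0.11, adjusted p = 0.081, and 0.016 with the block). That INS37217 call was lost without any 1 of the 3 INS37217 2 h arrays or without INS37217 7 d replicate 1 (adjusted p up to 0.11).

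Rbp3, the retinoid carrier of the space between the layers, ranged from 11.70 to 12.74 over the 18 arrays. The order of its group means spanned 0.30, which is the size of its pooled SD, 0.30. Its differences over time lay between -0.25 and 0.03, and none passed with or without the block. For the 24 h minus 2 h step the 95% interval was -0.45 to 0.51 with INS37217 and -0.51 to 0.46 with saline. The estimated falls of Rdh12 and Abca4 lie outside these intervals, that of Abca4 with saline, -0.56, only just. The errors of those estimates are not counted in this, and the genes were not tested against each other.

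Rdh11, a retinal reductase found in several cell types of the eye, ranged from 7.30 to 8.37. Its group means spanned 0.50, with a pooled SD of 0.29, and none of its differences passed without the block. The saline step between 2 h and 24 h was 0.50 (SE 0.22, 95% interval 0.03 to 0.97, adjusted p = 0.22), which passed with the block (adjusted p = 0.0091), with 3 of 3 replicate pairs higher. Its other probe set gave -0.10 for the same step (95% interval -0.65 to 0.45), so the 2 probe sets disagree in sign. Rdh11 lies next to Rdh12 on chromosome 12 with 0 protein-coding genes between them, and Rdh12 fell over the step between 2 h and 24 h, in which no fall of either Rdh11 probe set passed.

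The promoters of the photoreceptor genes that fell at 24 h, Rdh12 and Abca4, and of Rbp3, which did not pass, are shown for comparison, with capitals as above. They are chr12:79208663-79208962, chr3:122044210-122044509 and chr14:33953753-33954052, all on the plus strand.
Rdh12: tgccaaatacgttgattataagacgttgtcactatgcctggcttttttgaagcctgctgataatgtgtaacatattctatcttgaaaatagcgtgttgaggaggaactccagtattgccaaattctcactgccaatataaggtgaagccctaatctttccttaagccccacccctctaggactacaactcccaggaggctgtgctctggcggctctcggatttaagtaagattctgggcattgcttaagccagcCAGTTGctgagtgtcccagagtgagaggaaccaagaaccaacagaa
Abca4: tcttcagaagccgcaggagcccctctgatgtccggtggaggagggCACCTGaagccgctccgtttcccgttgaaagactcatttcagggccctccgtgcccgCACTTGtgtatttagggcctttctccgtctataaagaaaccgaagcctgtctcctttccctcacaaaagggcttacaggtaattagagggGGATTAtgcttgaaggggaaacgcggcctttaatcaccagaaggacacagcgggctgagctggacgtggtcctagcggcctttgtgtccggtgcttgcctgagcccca
Rbp3: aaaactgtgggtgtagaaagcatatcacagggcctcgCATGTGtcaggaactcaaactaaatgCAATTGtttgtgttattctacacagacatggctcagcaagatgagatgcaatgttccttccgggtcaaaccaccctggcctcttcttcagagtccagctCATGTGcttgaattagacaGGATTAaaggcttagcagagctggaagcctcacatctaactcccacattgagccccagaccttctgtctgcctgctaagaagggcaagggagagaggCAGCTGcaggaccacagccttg
The Abca4 window held TAATCC reversed, 58 bases before its start position, and this match lies inside the gene. The Rbp3 window held it reversed, 69 bases before its start position, which is the 5′ end of the gene. The Rdh12 window held none. Over all 10 genes the windows of 4 held TAATCC, against 7.06% of 32544 mouse promoters of the same length, and those of all 10 held CANNTG, against 72.3%. Genes with and without TAATCC were found among those that fell at 24 h and among those that were higher at 7 d. Any part of the motif in these changes was not tested.

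**Figure D2:**
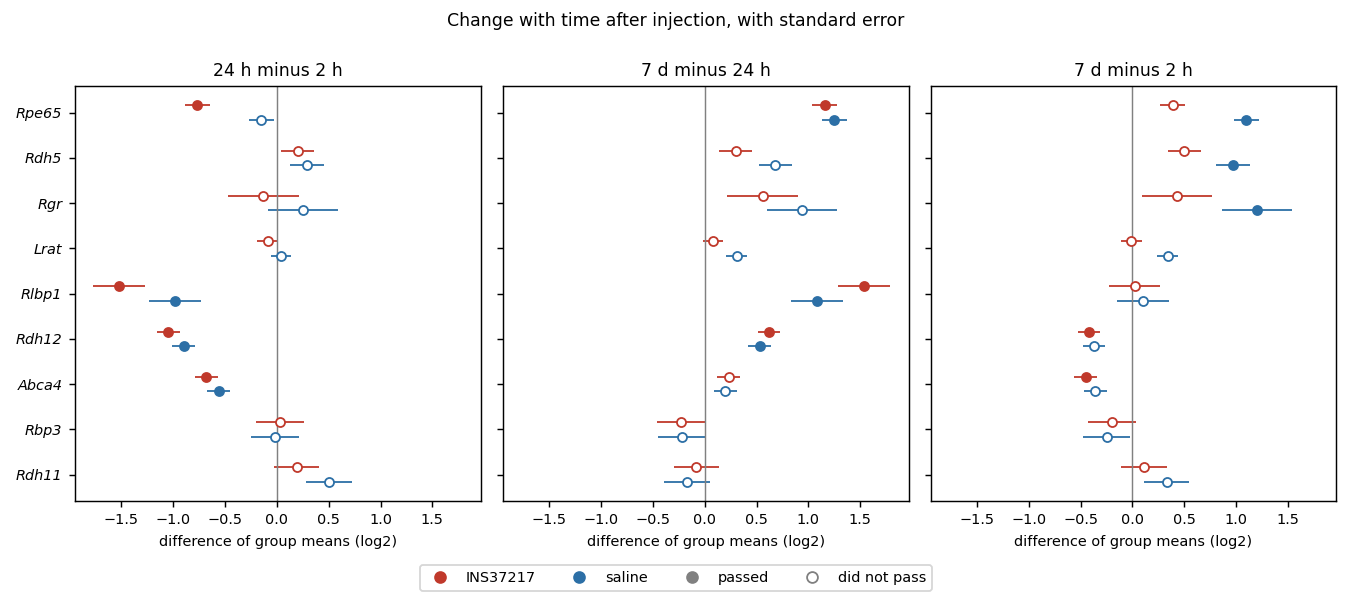
Difference of group means (log2) for each gene between times, with bars of 1 SE, INS37217 in red above saline in blue, and filled points where limma without the block passed. Rpe65, Rlbp1, Rdh12 and Abca4 lie left of 0 in the first panel for both treatments, and the saline point of Rpe65 did not pass. Rpe65 and Rlbp1 lie farthest right in the second, and Rdh12 and Abca4 are the genes left of 0 by more than 0.3 in the third.

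Counted over the 9 genes, 4 passed as lower at 24 h against 2 h with INS37217 (Rpe65, Rlbp1, Rdh12 and Abca4), where 3.3% of all probe sets did, and 3 with saline (Rlbp1, Rdh12 and Abca4), where 2.93% did. At 7 d against 24 h, 3 passed as higher with INS37217 and 3 with saline (Rpe65, Rlbp1 and Rdh12 in each), where 0.941% and 0.336% of all probe sets did. At 7 d against 2 h, 2 passed as lower with INS37217 (Rdh12 and Abca4), where 2.39% did. In the same interval 3 passed as higher with saline (Rpe65, Rdh5 and Rgr), where 2.7% did. The replicate block raised the shares of all probe sets that passed as well. With it, 4 genes passed as lower at 24 h against 2 h with INS37217, where 10.5% of all probe sets did, and 3 with saline, where 12.9% did, and Rdh11 alone passed as higher with saline, where 16.1% did. At 7 d against 24 h, 4 passed as higher with INS37217, Rgr added, where 3.59% did, and 5 with saline, Rdh5 and Rgr added, where 2.72% did. For 7 d against 2 h, 3 passed as higher with INS37217 (Rpe65, Rdh5 and Rgr), where 9.21% did, and 4 with saline, Lrat added, where 12.3% did. Rdh12 and Abca4 passed as lower in both treatments, 2 genes with INS37217, where 8.68% did, and 2 with saline, where 9.59% did. Without saline 7 d replicate 2, the array whose source name gives another time, the saline differences of Rpe65 were 1.17 at 7 d against 24 h (adjusted p = 0.00023) and 1.02 at 7 d against 2 h (adjusted p = 0.00028), and that of Rdh5 at 7 d against 2 h was 0.87 (adjusted p = 0.011). The differences of Rgr at 7 d against 2 h, 0.96 (adjusted p = 0.23), and of Rlbp1 and Rdh12 at 7 d against 24 h, 1.04 and 0.49 (adjusted p = 0.17 and 0.11), did not pass without it. The comparisons over time share arrays: each group of arrays enters 2 of the 3 steps of its treatment. The median difference of the 9 genes at 7 d against 24 h was 0.30 with INS37217 and 0.53 with saline, against 0 and 0.02 over all probe sets. At 24 h against 2 h it was -0.13 with INS37217 and -0.02 with saline, against -0.04 and -0.04. In that step 3 genes had higher and 6 lower means with INS37217, and 4 and 5 with saline, and without the block 0 passed as higher. For 7 d against 2 h the median was 0.02 with INS37217 and 0.33 with saline, against -0.04 and -0.01.

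INS37217 was compared with saline at each time. None of the 9 genes passed at 2 h, 24 h or 7 d by limma without the block, where 0.128%, 0.119% and 0.15% of all probe sets did, and 1, 2 and 1 of the 9 had an unadjusted p under 0.05. With the replicate block 0, 1 and 0 passed, where 1.76%, 0.888% and 0.641% of all probe sets did. The gene that passed was Rlbp1, which at 24 h was lower with INS37217 than with saline by a difference of -0.58 (SE 0.25, 95% interval -1.12 to -0.04 without the block, -0.79 to -0.38 with it, adjusted p = 1 without the block and 0.0031 with it). The INS37217 arrays at 24 h, given above, lay below all saline arrays of that time, as they did for 4.05% of all probe sets. At 2 h the Rlbp1 difference was -0.04 (95% interval -0.58 to 0.50) and at 7 d it was -0.12 (95% interval -0.66 to 0.42). The change of the INS37217 difference between 2 h and 24 h was -0.54 and did not pass with the block (adjusted p = 0.07), so the Rlbp1 difference is not shown to belong to 24 h.

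For Rpe65 the sign at 2 h was not that of the later times. Its INS37217 minus saline difference was 0.32 at 2 h (SE 0.12, 95% interval 0.06 to 0.57), -0.31 at 24 h (SE 0.12, 95% interval -0.56 to -0.05) and -0.39 at 7 d (SE 0.12, 95% interval -0.65 to -0.14). At 2 h the beta-actin ratio also differed, with a log2 mean of 0.747 (arrays 0.70 to 0.78) with INS37217 and of 1.04 (0.93 to 1.1) with saline, and its part in the 2 h values was not tested. None of the 3 Rpe65 differences passed (adjusted p = 0.99, 1 and 0.82 without the block, and 0.17, 0.29 and 0.12 with it), although the 3 INS37217 arrays and the 3 saline arrays did not overlap at any of the 3 times. Groups lay apart in the same direction as Rpe65 for 4.61% of all probe sets at 2 h, 4.05% at 24 h and 1.57% at 7 d. The change of the difference between 2 h and 7 d was -0.71 (SE 0.17, adjusted p = 0.28), and that between 2 h and 24 h was -0.62 (SE 0.17, adjusted p = 0.57). Both passed with the replicate block (adjusted p = 0.018 and 0.044), where 0.835% and 1.07% of all probe sets did, against 0.0884% and 0.0575% without it.

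The other pigment epithelium genes had values of the same kind at 2 h and 7 d that did not pass. Rdh5 had INS37217 minus saline differences of 0.22 (95% interval -0.12 to 0.56), 0.13 (-0.21 to 0.47) and -0.25 (-0.59 to 0.09) at 2 h, 24 h and 7 d. Rgr had 0.40 (-0.32 to 1.11), 0.02 (-0.70 to 0.73) and -0.37 (-1.08 to 0.34). Lrat had 0.18 (-0.04 to 0.40), 0.05 (-0.17 to 0.27) and -0.18 (-0.40 to 0.04). For Rgr the change between 2 h and 7 d, -0.77 (SE 0.47, adjusted p = 1), passed with the block (adjusted p = 0.0092), and for Rdh5 and Lrat it did not. All 9 genes had lower means with INS37217 than with saline at 7 d, with a median difference of -0.12 against -0.02 over all probe sets, and none of these differences passed with or without the block. These signs come from the same arrays, and the share of all probe sets with a lower mean is not given here.

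For the photoreceptor genes the intervals were narrower than for Rgr and Rlbp1 in the cases of Rdh12 and Abca4. The Rdh12 differences were 0.03 (95% interval -0.21 to 0.27), -0.11 (-0.35 to 0.12) and -0.02 (-0.26 to 0.22) at 2 h, 24 h and 7 d. The other Rdh12 probe set had 0.26 (-0.09 to 0.62) at 2 h, with INS37217 arrays that lay above the saline arrays, -0.15 (-0.50 to 0.21) at 24 h and -0.10 (-0.45 to 0.26) at 7 d, and it passed at no time. Those of Abca4 were -0.02 (-0.25 to 0.22), -0.14 (-0.37 to 0.10) and -0.11 (-0.34 to 0.13). An INS37217 effect on Rdh12 or Abca4 of the size of their fall at 24 h lies outside these intervals. Only effects up to the limits of the intervals lie within them, which at 24 h reach -0.35 for Rdh12 and -0.37 for Abca4. For Rdh12 this refers to its brighter probe set. The Rbp3 differences lay between -0.09 and -0.04 and those of Rdh11 between -0.19 and 0.12. Their intervals stayed within 0.58 of 0 for Rbp3 and within 0.66 of 0 for Rdh11, reaching farther below 0 than above it.

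**Figure D3:**
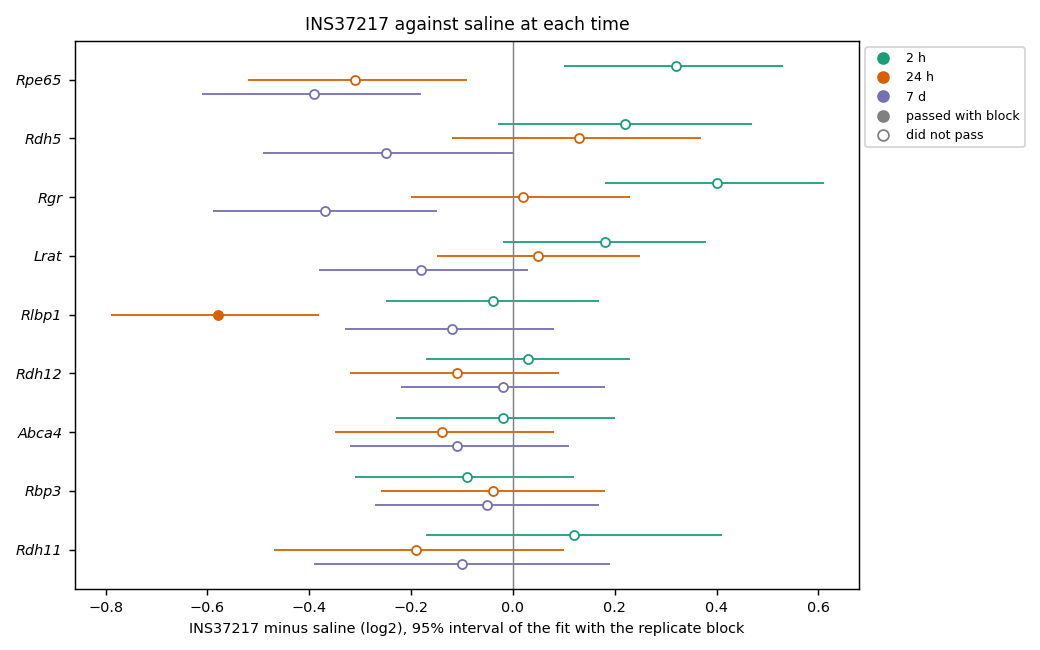
INS37217 minus saline (log2) for each gene at 2 h, 24 h and 7 d, with the 95% interval from the fit with the replicate block; the filled point passed after adjustment over all probe sets with that block. The Rlbp1 point at 24 h, -0.58, is the filled one, and the Rpe65 points lie at 0.32, -0.31 and -0.39.

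Other markers of the same cells moved with several of these genes, and in whole retinas a change in the number of cells of a type and a change in RNA per cell cannot be told apart. The 16 other pigment epithelium markers averaged 7.13 (arrays 7.06 to 7.24) at 2 h with INS37217 and 7.38 (7.34 to 7.42) at 2 h with saline. They averaged 7.43 (7.31 to 7.50) at 24 h with INS37217 and 7.52 (7.42 to 7.57) at 24 h with saline, and 7.97 (7.76 to 8.08) at 7 d with INS37217 and 7.87 (7.71 to 8.01) at 7 d with saline. All 16 had higher means at 7 d than at 2 h in each treatment, by a median of 0.51 with INS37217 and of 0.39 with saline. With INS37217 7 passed, where 2.51% of all probe sets did as higher, and with saline 3 passed, where 2.7% did. With the block 11 passed in each, where 9.21% and 12.3% did. The 3 that passed with saline without the block were Ttr, the carrier of thyroid hormone and retinol-binding protein (1.40), Tyr, the first enzyme of melanin synthesis (1.25), and the lactate transporter Slc16a8 (0.64). The part of this shift in the higher Rpe65, Rdh5 and Rgr at 7 d was not tested.

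Between 24 h and 7 d, where Rpe65 rose in both treatments, 14 of the 16 markers had higher means with INS37217 (median 0.50, 5 passed, 10 with the block) and 13 with saline (median 0.34, 0 passed by limma without the block with 8 at an unadjusted p under 0.05, and 8 passed with it). Over all probe sets 0.941% passed as higher with INS37217 (3.59% with the block) and 0.336% with saline (2.72% with it). In the step before, the markers and Rpe65 went different ways with INS37217. With INS37217 between 2 h and 24 h, 4 of the 16 passed as higher (7 with the block), Tyr (1.13), Pmel (1.07), Cldn2 (0.94) and Tyrp1 (0.74), while Rpe65 fell. Over all probe sets 3.23% passed as higher in that step (11.6% with the block). The marker that fell in the same step was Rrh, peropsin, an opsin of the pigment epithelium, by a difference of -1.01 (SE 0.26, adjusted p = 0.03). At 2 h, Pmel and Tyrp1, both melanosome proteins, were lower with INS37217 than with saline by differences of -1.22 and -1.01 (adjusted p = 0.0015 and 0.015), the time at which the Rpe65 arrays with INS37217 lay above those with saline. The median INS37217 minus saline difference of the 16 markers was -0.09, -0.06 and 0.13 at 2 h, 24 h and 7 d. By limma without the block 2, 0 and 0 passed (4, 1 and 0 with it), and 5, 2 and 0 had an unadjusted p under 0.05. Over all probe sets 0.128%, 0.119% and 0.15% passed in either direction (1.76%, 0.888% and 0.641% with the block).

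The 17 Mueller glia markers averaged 9.41 at 24 h with INS37217 and 9.58 at 24 h with saline, lower than their averages at 2 h of 9.80 and 9.74 with INS37217 and saline. Between 2 h and 24 h, 6 of the 17 fell with INS37217 and 5 with saline, while 2 rose in each (3 and 6 with the block, with INS37217 and saline). Over all probe sets 3.3% and 2.93% passed as lower with INS37217 and saline. As higher, 3.23% and 4.65% passed (11.6% and 16.1% with the block). The 5 that fell with saline were Spc25 (-3.20), Car14, a carbonic anhydrase (-1.29), Glul, the glutamine synthetase that glia use to detoxify glutamate (-1.27), the transcription factor Sox9 (-0.87) and Abca8a (-0.53). The 2 that rose with saline were Vim, the intermediate filament vimentin (1.39), and the ferroxidase Cp (1.28). Rlbp1, with -1.52 and -0.98, moved with the first set. At 7 d the list averaged 10.07 with INS37217 and 10.06 with saline. Between 24 h and 7 d, 6 rose and 2 fell with INS37217, and 4 rose and 2 fell with saline (11 and 9 rose with the block). Over all probe sets 0.941% and 0.336% passed as higher in that step with INS37217 and saline (3.59% and 2.72% with the block). As lower, 1.27% and 0.977% passed. At 7 d against 2 h 5 were higher and 2 lower with INS37217 (9 higher with the block), and 7 and 2 with saline. There 2.51% (9.21% with the block) and 2.7% of all probe sets passed as higher with INS37217 and saline, and 2.39% and 2.74% as lower. None of the 17 passed for INS37217 against saline at any time by limma without the block, where 3, 7 and 1 had an unadjusted p under 0.05. With the block 1 passed as higher at 2 h and 5 as lower at 24 h, beside Rlbp1. Over all probe sets 1.38% and 0.274% did so with the block.

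The 15 rod markers averaged 11.95 and 11.91 at 2 h with INS37217 and saline, 11.36 and 11.40 at 24 h, and 11.58 and 11.64 at 7 d. Between 2 h and 24 h all 15 had lower means in each treatment, and 9 passed as lower with INS37217 (median -0.52) and 7 with saline (median -0.36), the step in which Rdh12 and Abca4 fell. Over all probe sets 3.3% and 2.93% passed as lower in that step with INS37217 and saline. Between 24 h and 7 d their medians were 0.24 with INS37217, where 2 passed as higher (4 with the block) and 1 as lower, and 0.23 with saline, where 0 passed by limma, 3 passed with the block and 5 had an unadjusted p under 0.05. Over all probe sets 0.941% passed as higher in that step with INS37217 (3.59% with the block) and 0.336% with saline (2.72% with it). As lower with INS37217, 1.27% passed. Against 2 h, 2 passed as lower at 7 d with INS37217 (median -0.18) and 1 with saline (5 with the block, median -0.12). In that comparison 2.39% of all probe sets passed as lower with INS37217 and 2.74% with saline (9.59% with the block). Of 10 cone markers, 5 fell with INS37217 between 2 h and 24 h (median -0.59), and 4 fell and 1 rose with saline (median -0.42). Between 24 h and 7 d 3 cone markers rose in each treatment (5 with INS37217 with the block), the step whose shares over all probe sets are given above. For INS37217 against saline 0 cone markers passed at 24 h by limma, 2 as lower with the block and 2 at an unadjusted p under 0.05. With the block 0.274% of all probe sets passed as lower there. Whether the fall of Rdh12 and Abca4 went beyond that of photoreceptor RNA as a whole was not tested.

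RNA of cells outside the neural retina moved too. Of 11 lens markers, 6 were higher with INS37217 than with saline at 2 h (9 with the block, median 0.71), and 0 passed at 24 h or 7 d, where 0 and 0 had an unadjusted p under 0.05 by limma. Over time 10 lens markers were higher with saline at 24 h against 2 h and 10 at 7 d against 2 h, and 0 and 1 with INS37217 (0 and 3 with the block). Over all probe sets 4.65% and 2.7% passed as higher in those comparisons with saline, and 3.23% and 2.51% with INS37217. For INS37217 against saline at 2 h, 0.0928% passed as higher. The 8 fibroblast and choroid stroma markers averaged 6.16, 6.59 and 7.45 at 2 h, 24 h and 7 d with INS37217. With saline they averaged 6.31, 6.58 and 6.76. At 7 d 2 of them passed as higher with INS37217 than with saline (median 0.44), where 0.15% of all probe sets did. The 8 microglia and macrophage markers averaged 6.01, 6.95 and 7.88 with INS37217, and 5.98, 6.51 and 7.32 with saline, and at 7 d against 2 h 8 passed as higher with INS37217 and 6 with saline (8 with the block). For INS37217 against saline 1 of the 8 passed as higher at 24 h and 1 at 7 d (3 and 4 with the block). Over all probe sets 0.106% and 0.15% did (0.614% and 0.636% with the block). The part of these shifts in the values of the visual cycle genes was not tested.

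**Figure D4:**
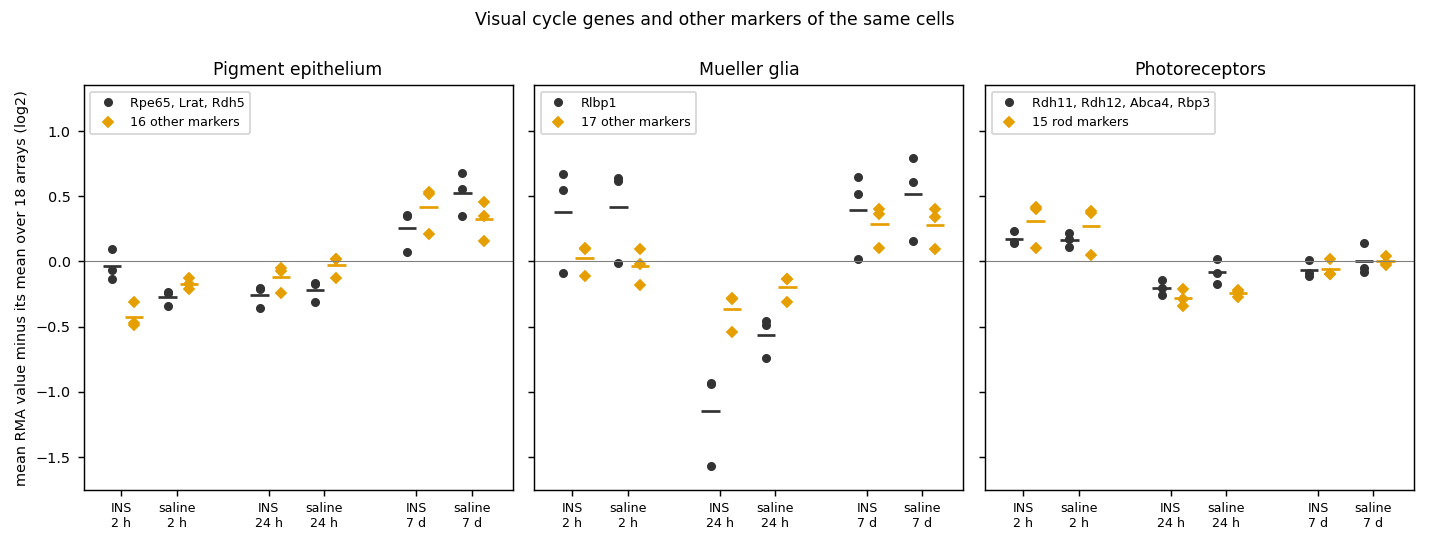
Mean RMA value of a gene class on each array minus its mean over the 18 arrays (log2), visual cycle genes as black circles beside other markers of the same cell as orange diamonds, with a line at each group mean. The pigment epithelium panel is highest at 7 d for both sets, and Rlbp1 and the average of the 17 Mueller glia markers, whose members go both ways, are lowest at 24 h. The photoreceptor panel has both averages lowest at 24 h, but its visual cycle genes differ. Rdh12 and Abca4 fell at 24 h and no Rbp3 difference passed. Rdh11, which is found in several cell types, had higher means at 24 h than at 2 h.

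Other genes of retinoid handling, 42 measured of 49 listed, passed in both directions, in counts that stand beside those over all probe sets. The list holds retinoid carriers, dehydrogenases, esterases, oxidases and receptors. With INS37217 between 2 h and 24 h 2 of 42 passed as lower (9 with the block), where 3.3% of all probe sets did, and 0 as higher (5 with the block), Rrh (-1.01) and the carotenoid and lipoprotein receptor Scarb1 (-0.80, adjusted p = 0.015). With saline 3 passed as lower in that step (7 with the block), where 2.93% of all probe sets did, Scarb1 (-0.64, adjusted p = 0.045), the retinal reductase Dhrs3 (-0.56, adjusted p = 0.015) and the nuclear receptor Rxra (-0.43, adjusted p = 0.048). In the same saline step 2 passed as higher (7 with the block), where 4.65% of all probe sets did, the serum retinol carrier Rbp4 (0.81, adjusted p = 0.013) and Rdh10, a retinol dehydrogenase of retinoic acid synthesis (0.72, adjusted p = 0.04).

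Between 24 h and 7 d 2 of the 42 rose with INS37217 (8 with the block, and 2 lower), where 0.941% of all probe sets did, Rrh (1.32, adjusted p = 0.011) and the scavenger receptor Cd36 (0.70, adjusted p = 0.041), and 0 passed with saline by limma, where 5 had an unadjusted p under 0.05 and 5 passed with the block. Dgat1, an acyltransferase that can also esterify retinol, was lower at 7 d than at 2 h, with INS37217 (-0.43, adjusted p = 0.015) and with saline (-0.54, adjusted p = 0.0031). In that comparison Scarb1 was also lower with INS37217 (-0.67, adjusted p = 0.048), and Ttr was higher with saline (1.40, adjusted p = 0.011). These were 2 lower and 0 higher of 42 with INS37217, where 2.39% and 2.51% of all probe sets passed, and 1 lower and 1 higher with saline, where 2.74% and 2.7% did. With the block they were 4 lower and 10 higher with INS37217, where 8.68% and 9.21% did. With saline and the block they were 5 lower and 10 higher, where 9.59% and 12.3% did. For INS37217 against saline 0 of 42 passed at each time by limma without the block, and 1, 1 and 2 had an unadjusted p under 0.05 at 2 h, 24 h and 7 d. With the block Rrh was lower at 24 h (-0.62, adjusted p = 0.0072). Of the list, Rrh and Ttr are also among the pigment epithelium markers, and Rxrg among the cone markers.

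The probe sets whose 6 group means followed those of 3 of the genes most closely were found by the root mean square difference of the centred means, a description over 6 groups that share their arrays. For Rpe65 they were Cnmd (0.10), Optc (0.18), Frzb (0.19), Cltrn (0.19) and 1 of the probe sets of Glul (0.19). For Rlbp1 they were Car14 (0.14), Kcne2 (0.17), another probe set of Glul (0.20), Fmod (0.21) and Abca8a (0.21). For Abca4 they were Dnmt3a (0.025), Galnt10 (0.030), Crx (0.030), Uhmk1 (0.032) and Mgat1 (0.033), on a range of group means of 0.69. Car14, Glul and Abca8a are in the Mueller glia list and Fmod is in the fibroblast list.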

How the data were processed

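RNA of pooled mouse retinas was measured on 18 Affymetrix arrays, 1 array per pool. The values used are log2 RMA levels that the authors deposited, per the submitters' processing notes; the version and settings of RMA and a genome build were not given in the sources used here. They ran from 2.83 to 14.15. Of 22690 probe sets, 64 Affymetrix controls were left out. Names came from the platform's probe table and RefSeq: 20380 probe sets had 1 gene, 691 several and 1555 none.

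R 4.3.3 and limma 3.58.1 (lmFit, then eBayes) were used for all tests (1 mean for each of 6 groups, 12 residual and 3.3 prior degrees of freedom), with Benjamini-Hochberg adjustment over 22626 probe sets. Precision is limited by the 3 arrays of each group. Replicate numbers pair the arrays: all 45 same-number pairs between groups correlated at 0.426 to 0.921 after group means were removed, although replicates 2 and 3 of different groups also did, at 0.363 to 0.725, and replicate 1 stands against both. A fit with the number as a block (10 residual degrees of freedom) is given where it changes a call. Groups come from the sample titles. Saline 7 d replicate 2, whose source name gives 2 h, had its highest correlations, 0.9945 and 0.9941, with 2 other 7 d arrays and was kept at 7 d. Per the design text the 3 arrays of a group are biological replicates. The steps were tested on simulated data.

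The genes and lists were chosen with earlier results of these data known. All visual cycle genes were named in each comparison, and of each list the up to 4 passed genes of largest change, plus the 5 nearest patterns of Rpe65, Rlbp1 and Abca4; Tyrp1, Glul, Sox9, Abca8a and Rxra in other places were named after their values were seen. Alternatives were quantile normalization again, equal array medians, eBayes with trend and robust, a filter on dim probe sets, only the arrays compared, the mean of a gene's probe sets, the block and each array left out, and, added after the data were seen, only replicates 2 and 3.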

Additional observations from a re-analysis of the deposited data

Results flagged for a closer look

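For Rpe65, Rdh5, Rgr and Lrat, 4 of the 9 genes, the INS37217 minus saline difference was above 0 at 2 h and below 0 at 7 d in each of the 3 replicate-number pairs, a turn in either direction that 5.06% of all probe sets showed. Rpe65 alone of the 9 also turned so between 2 h and 24 h, as 4.69% of all probe sets did, while the 24 h differences of Rdh5, Rgr and Lrat had the sign of 2 h. The turn of Lrat, whose probe set lay at percentile 6.9, rests in the replicate 1 pair on nearly equal values. They were 3.92 with INS37217 and 3.91 with saline at 2 h, and 3.99 with INS37217 and 4 with saline at 7 d. Lrat therefore counts only weakly among the 4 genes. For Rpe65, the isomerohydrolase, the difference at 24 h minus that at 2 h was -0.62 (SE 0.17, limma adjusted p = 0.57 without the replicate block and 0.044 with it). For Rpe65 the difference at 7 d minus that at 2 h was -0.71 (SE 0.17, limma adjusted p = 0.28, and 0.018 with the block). For the opsin Rgr the same change was -0.77 (SE 0.47, limma adjusted p = 1, and 0.0092 with the block). For the dehydrogenase Rdh5 it was -0.47 (SE 0.22, limma adjusted p = 1, and 0.3 with the block), and for the dim Lrat it was -0.36 (SE 0.15, limma adjusted p = 1, and 0.38 with the block).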

How the results depend on the processing

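Alternatives were run on the counts of passed genes and on 32 single differences of visual cycle genes, those that passed with or without the block; none of the 32 changed sign. Differences that passed in neither fit were not followed under the alternatives. The number of the 9 genes that passed was 3 for saline 7 d against 24 h and became 1 with only the arrays compared and 5 with the replicate block, with replicates 2 and 3 alone, and with both. It was 3 for saline 7 d against 2 h and became 6 in those last 3 fits. It was 3 for INS37217 7 d against 24 h and became 1 with only the arrays compared and 5 with replicates 2 and 3 and the block. It was 2 for INS37217 7 d against 2 h and became 4 after quantile normalization again, 0 with only the arrays compared, 5 with the block, 1 with the mean of a gene's probe sets, and 6 with replicates 2 and 3, with or without the block. For INS37217 against saline at 24 h it was 0 and became 1 with the block. For the change of the INS37217 difference it was 0 and became 1 with the block for 24 h against 2 h. For 7 d against 2 h it became 2 with the block, and 1 with replicates 2 and 3, with or without it. The share of all probe sets that passed in the fits with replicates 2 and 3 is not given here, so those counts are not read as a trait of the 9 genes. The block alone raised the share of all probe sets that passed, from 4.91% to 17.9% for INS37217 7 d against 2 h. Leaving out 1 array gave 2 to 3 genes for saline 24 h against 2 h, 4 to 4 for INS37217 24 h against 2 h, 1 to 4 and 2 to 4 for saline 7 d against 24 h and 2 h, 3 to 3 and 0 to 2 for the same with INS37217, and 0 to 0 for INS37217 against saline and its changes. The calls of Rpe65 and Rdh5 without the block, and the falls of Rlbp1 with INS37217 and of Rdh12 and Abca4 in both treatments at 24 h, held in all 18 omissions. For the visual cycle genes the block changed no call other than those given with it, and the filter on dim probe sets left out Lrat. Whether a cause lies behind the changed counts was not tested, apart from the fewer arrays of some fits.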
